A study of Mus musculus with 6 samples.

Results

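MiRNAs that other organs make in bulk were looked up in mouse renal cortex: 7 miRNAs of striated muscle (mmu-miR-1, mmu-miR-133a, mmu-miR-133b, mmu-miR-206, mmu-miR-208a, mmu-miR-208b and mmu-miR-499), 1 of liver (mmu-miR-122) and 2 of brain (mmu-miR-124 and mmu-miR-9). They were chosen by name, with star strands left out, and all 10 were found, each with a single probe, among the 599 mature miRNA probes of the array. Every probe was printed as 5 spots, and 669 empty spots gave the background of each sample. The treated group held 3 C57Bl6 mice that for 10 days ate a diet low in sodium (0.05%) and drank water with 0.5 g/L of captopril, which blocks angiotensin converting enzyme. The control group held 3 untreated C57Bl6 mice. Each group held 2 males and 1 female, and the age was 3.5 months except for treated replicate 1, a female of 5 months. Each sample was small RNA from the kidney cortex of 1 mouse on an array of its own. Treated replicate 2 and control replicates 1 and 3 carried the dye Cy3, and treated replicates 1 and 3 and control replicate 2 carried Cy5. The arrays show whether the probes gave signal, and in bulk cortex fewer cells of a type and less RNA per cell cannot be told apart.

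A miRNA is a short RNA that guides silencing complexes to messages that pair with its seed, bases 2 to 8. MiR-1 and miR-133a are made from shared precursor transcripts in heart and skeletal muscle, and miR-206 and miR-133b are made together in skeletal muscle. MiR-208a, miR-208b and miR-499 lie in introns of myosin heavy chain genes and take part in setting the fibre type of muscle. MiR-122 is the dominant miRNA of hepatocytes, where it acts on lipid metabolism, miR-124 marks neurons, and miR-9 is made by neural progenitors and the brain. None of these tissues belongs to the renal cortex, so the miRNAs serve as a check of tissue specificity.

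The mature sequences of 6 of the 10 were matched by name and by the target sequence of the probe to RefSeq's miRNA table (GRCm38.p6). They are shown because close relatives can share a probe's signal, with the seed in capitals.
miR-206: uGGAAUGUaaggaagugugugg
miR-133b: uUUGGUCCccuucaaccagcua
miR-208a: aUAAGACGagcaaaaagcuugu
miR-208b: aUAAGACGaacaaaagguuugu
miR-499: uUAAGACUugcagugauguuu
miR-9: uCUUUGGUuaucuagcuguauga
MiR-208a and miR-208b share their seed and differ at 3 of 22 bases, and the seed of miR-499 departs from theirs in its last base. MiR-206 shares its seed with miR-1, from which it differs at 4 of 22 bases, and miR-133b shares its seed with miR-133a, from which it differs at 1 of 22. No probe outside the 10 shared a seed with any of them. The miRNAs closest to miR-206 and to miR-208b outside the 10 differed at 8 bases when aligned from the 5′ end.

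In the same table, mature miR-206 lies on the plus strand at chr1:20679055-20679076 and miR-133b at chr1:20682834-20682855, 3.78 kb apart and both within the noncoding gene Lincmd1. MiR-208a lies on the minus strand at chr14:54949072-54949093 within Myh6, the gene of the alpha myosin heavy chain of heart. MiR-208b lies at chr14:54975710-54975731, also on the minus strand, within Myh7, the gene of the beta chain. MiR-499 lies on the plus strand at chr2:155622893-155622913 within Myh7b. MiR-9 has 3 genes in the table, at chr3:88215613-88215635, chr7:79505279-79505301 and chr13:83738821-83738843, and the array cannot tell their products apart. The other 4 were miR-1, miR-133a, miR-122 and miR-124.

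A probe passed as above background when its 5 spots, averaged as log2 intensity after background correction, lay more than 3 SD over the mean of the empty spots of that sample. Of the 10 miRNAs, 6 passed in at least 1 sample, against 40.9% of all probes, and 4 passed in no sample, against 59.1%. MiR-9 alone of the 10 passed in at least 3 samples, as did 31.2% of all probes, and none of the 10 passed in all 6 samples, as 18.4% did. The threshold decides this count: with 2 SD, 4 of the 10 passed in at least 3 samples, against 38.9% of all probes, and with 5 SD none did, against 24.2%. With the 99th percentile of the empty spots as the threshold, 4 passed, against 39.4%. At 2 SD and at the 99th percentile the share of the 10 was thus close to that of the array. The counts below are for 3 SD. By sample, 3, 0 and 2 of the 10 passed in treated replicates 1, 2 and 3, where 38.4%, 19.7% and 33.7% of all probes did. In control replicates 1, 2 and 3, 5, 0 and 1 passed, where 28.9%, 21.2% and 29.9% of all probes did. Control replicate 1 was thus the only sample in which the 10 passed more often than the array as a whole, and the 10 gave 5 passing readings of 30 in treated samples and 6 of 30 in controls. Counted by miRNA, 3 of the 10 passed in at least 1 treated sample (39.6% of all probes) and 5 in at least 1 control (33.4%).

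**Figure D1:**
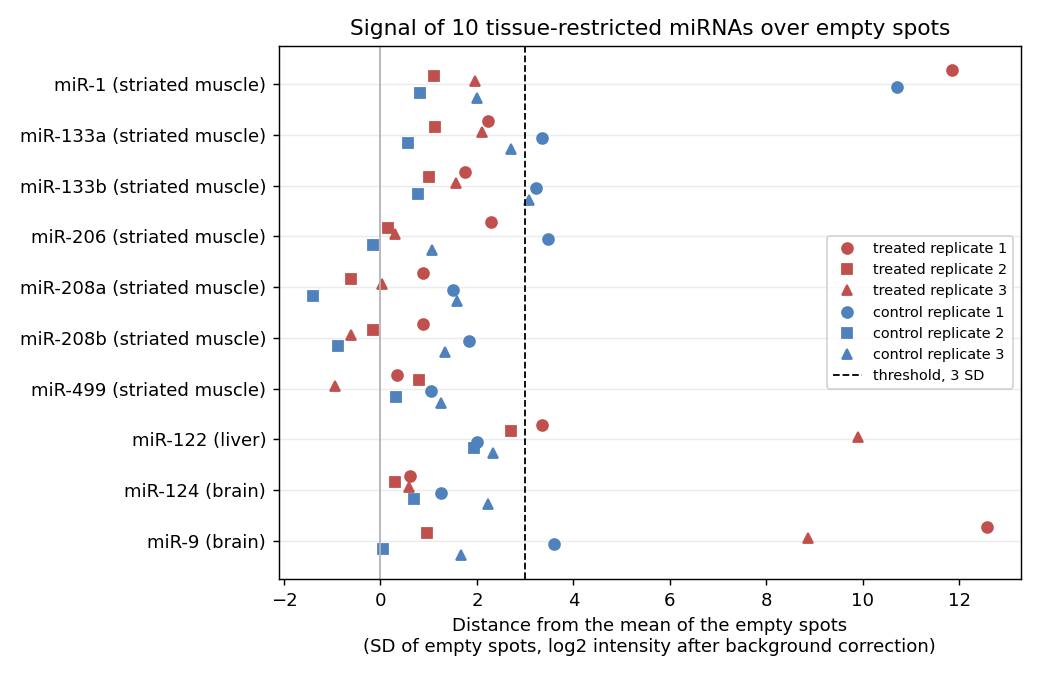
Distance of each miRNA from the mean of the empty spots, in SD of the empty spots on the log2 scale after background correction (x axis), with a row for each miRNA and a point for each of 6 samples (red, treated; blue, control; the shape gives the replicate). MiR-1 lies far right of the dashed threshold of 3 SD in both samples numbered 1, miR-9 in treated replicates 1 and 3, and miR-122 in treated replicate 3, while miR-208a, miR-208b, miR-499 and miR-124 lie left of it in every sample.

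Most miRNAs expected in the cortex behaved otherwise on the same arrays. All 15 renal epithelial miRNAs of a list that includes miR-192, miR-194 and the miR-30 and miR-200 families passed in at least 3 samples, 13 of them in all 6. The rest, miR-204 (-0.40 to 6.81 SD) and miR-141 (0.82 to 7.64 SD), each passed in 2 treated samples and 1 control, as miR-9 did. That list was chosen with earlier results of these arrays known, and 2 relatives of its members that it leaves out, miR-215 (of miR-192) and miR-211 (of miR-204), passed in 0 samples. Both smooth muscle miRNAs, miR-143 and miR-145, passed in all 6 samples. Of 11 other brain-enriched miRNAs, 9 passed in no sample, and miR-128 (6 samples) and miR-7a (3 samples) passed. Of 4 pancreas miRNAs, 3 passed in no sample, and miR-375, which is made in islets, passed in 6. Of 11 miRNAs of pluripotent cells, 10 passed in no sample, and miR-290-5p passed in 4.

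**Figure D2:**
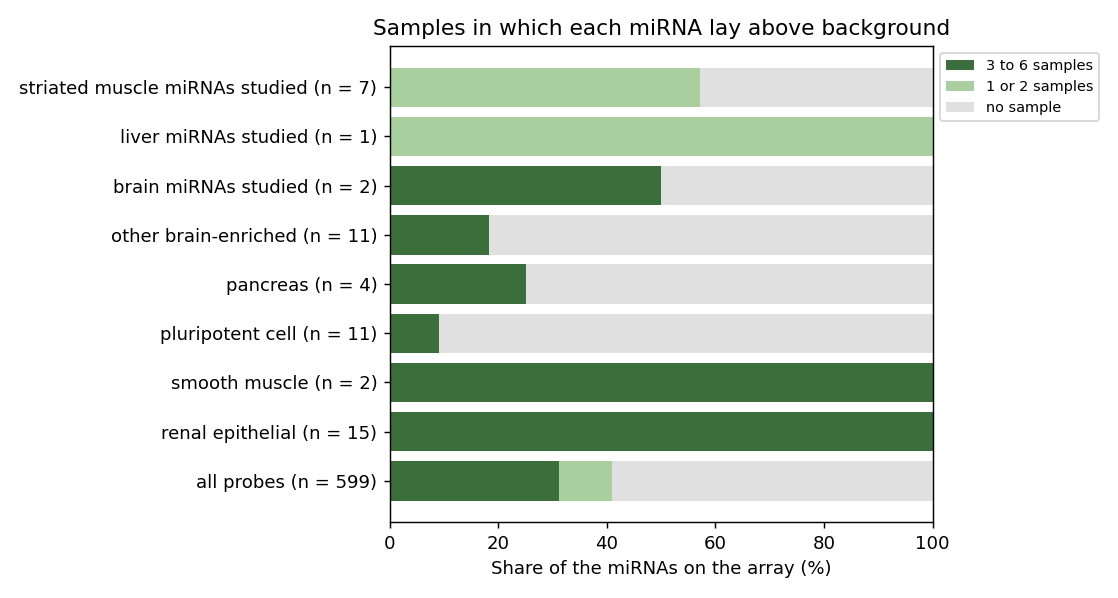
Share of the miRNAs of each list (x axis, percent) that lay above background in 3 to 6 samples (dark green), in 1 or 2 samples (light green) or in no sample (grey), with the number of probes beside each name. The 7 striated muscle miRNAs have no dark part, while both smooth muscle miRNAs and all 15 renal epithelial miRNAs are dark throughout; 31.2% of all 599 probes are dark.

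MiR-1, which restrains growth and promotes differentiation of heart and skeletal muscle, had the highest ratio to the median empty spot of any of the 10, in control replicate 1. Its 5 spots averaged 86.2 ± 15.5, 490 ± 12.7 and 38.2 ± 2.16 intensity units (SD over spots) in treated replicates 1, 2 and 3, against 1171 ± 103, 55.1 ± 3.32 and 244 ± 11.0 in control replicates 1, 2 and 3. The median empty spot read 37.6, 459 and 34.4 in the same treated samples and 289, 51.2 and 219 in the controls, higher in Cy3 than in Cy5. MiR-1 therefore stood at 2.29, 1.07 and 1.11 times the median empty spot in treated samples and at 4.05, 1.08 and 1.11 times in controls. Treated replicate 1 and control replicate 1 were high, the other 4 samples were near the empty spots, and the groups overlapped. In both high samples all 5 spots were brighter than each of the 669 empty spots, with distances of 11.9 SD and 10.7 SD, whereas the other 4 samples lay between 0.81 and 2.00 SD. By distance in SD, miR-9 in treated replicate 1 (12.6 SD) lay farther out than either.

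MiR-133a, a partner of miR-1 in muscle that represses smooth muscle genes and serum response factor, passed in control replicate 1 alone. Its mean intensity was 44.6, 490 and 38.5 in treated samples, against 392, 53.9 and 254 in controls, which is 1.19, 1.07 and 1.12 against 1.36, 1.05 and 1.16 times the median empty spot. Its distance of 3.34 SD in control replicate 1 was close to the threshold, 4 of 5 spots there were brighter than every empty spot, and control replicate 3 came next with 2.70 SD.

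MiR-133b followed it closely. It read 43.1, 487 and 37.4 in treated samples, against 387, 55.0 and 261 in controls, and it passed in control replicates 1 (3.23 SD) and 3 (3.08 SD). In control replicate 3 none of its 5 spots was brighter than the brightest empty spot, and the median of the probes that passed in no sample was itself 1.65 SD over the empty spots there, so this reading rose little over that of unused probes. In control replicate 1 the same median was 1.12 SD, which also limits the passes of miR-133a, miR-133b and miR-206 in that sample. With a single differing base, the miR-133a and miR-133b probes can take up each other's target, and how much each contributes was not tested.

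MiR-206, made in skeletal muscle and not in heart, read 44.8, 463 and 35.0 in treated samples, against 399, 50.6 and 231 in controls. It passed in control replicate 1 alone (3.48 SD), where all 5 spots were brighter than every empty spot, and it reached 2.28 SD in treated replicate 1. The samples that were high for miR-206 were those that were high for miR-1, and at 4 differing bases part of the miR-206 signal could be miR-1 on its probe, which was not tested.

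The 3 miRNAs of myosin genes did not pass in any sample. MiR-208a lay between -0.61 and 0.88 SD from the empty spots in treated samples and between -1.41 and 1.58 SD in controls. MiR-208b, the slow muscle relative of miR-208a, lay between -0.61 and 0.89 SD in treated samples and between -0.87 and 1.84 SD in controls. MiR-499 lay between -0.94 and 0.79 SD in treated samples and between 0.32 and 1.26 SD in controls. These values are within the range of the 10 undetected pluripotent cell miRNAs, which ran from -1.65 to 2.14 SD. A level too low for these probes was not detectable here.

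**Figure D3:**
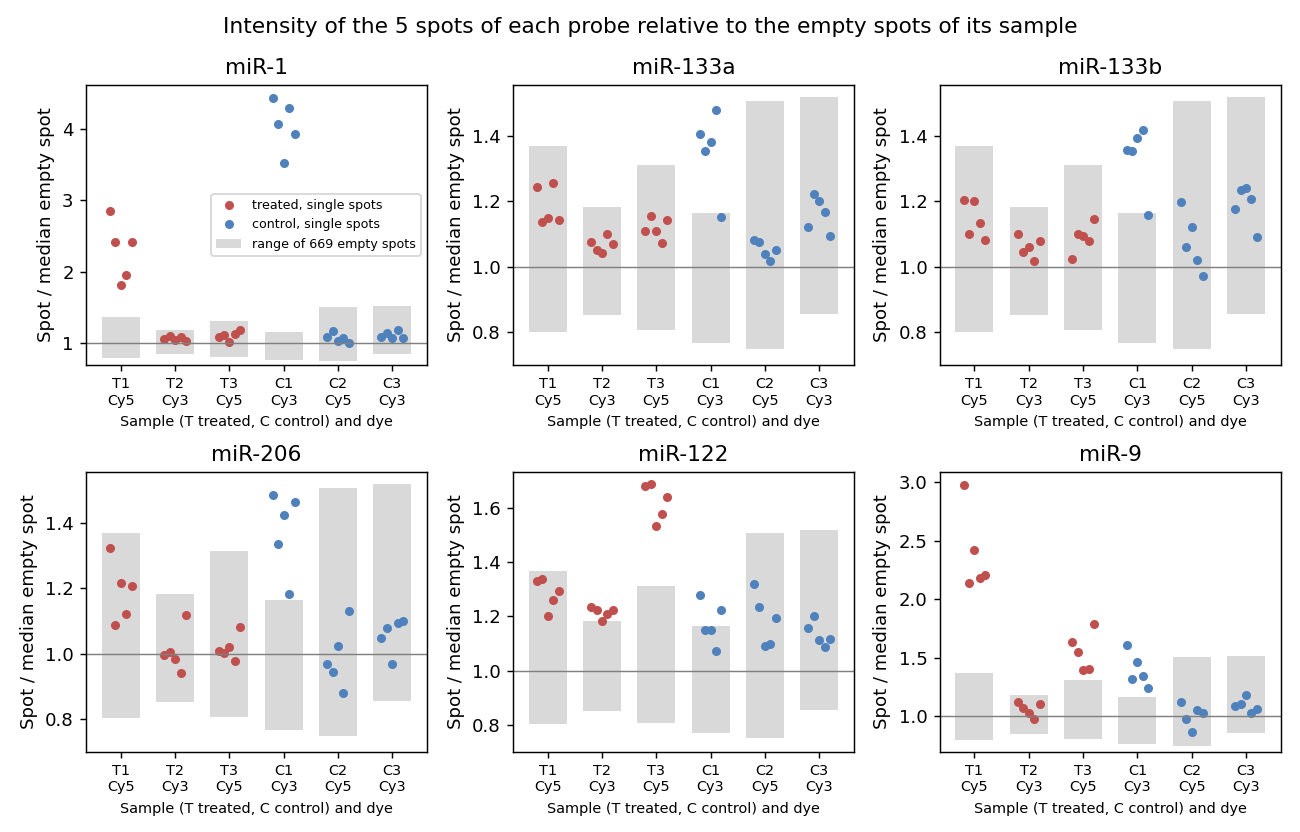
Intensity of each of the 5 spots of a probe divided by the median empty spot of the sample (y axis), for 6 miRNAs in 6 samples (x axis: T, treated; C, control, with replicate and dye), with the range of the 669 empty spots as a grey bar. All 5 miR-1 spots lie above the grey bar in T1 and C1, all 5 miR-9 spots in T1, T3 and C1, and all 5 miR-122 spots in T3; the y axes differ and do not start at 0.

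Most of the 7 striated muscle miRNAs had their highest normalised level in control replicate 1. Of the 7, 4 passed in at least 1 of the 6 samples, and 2 did so without control replicate 1, miR-1 in treated replicate 1 and miR-133b in control replicate 3. Their summed intensity over the median empty spot was 74.8, 95.7 and 9.06 in treated samples, against 1293, 1.83 and 163 in controls, and miR-1 made up 68.2% of the sum in control replicate 1 and 64.9% of that in treated replicate 1. This sum is not scaled between samples, and it was also highest in control replicate 1 for the other brain-enriched, pancreas, pluripotent cell and renal epithelial lists, so it does not set the muscle list apart. Of the 7, 6 had their highest quantile-normalised level in control replicate 1, as had 10.2% of all probes. Among these 6 were miR-208a and miR-208b, which passed in no sample, and close relatives may share signal, so these are not 6 separate detected signals. The authors' processed intensities were likewise highest in control replicate 1 for 6 of the 7, against 10.5% of all probes. On that scale, where the median of all probes was 17 to 19 in every sample, miR-1 had 66, 32 and 17 in treated samples and 410, 32 and 14 in controls. MiR-206 had 17, 12 and 10 in treated samples and 46, 15 and 8 in controls. The highest processed value of miR-133a was 46 and that of miR-133b was 38, both in control replicate 1, while miR-208a, miR-208b and miR-499 reached at most 16 in any sample. Measured as distance from the empty spots, 4 of the 7 were highest in control replicate 1, against 3.34% of all probes. These were miR-133a, miR-133b, miR-206 and miR-208b, the last not above background. For the 2 smooth muscle miRNAs, the median normalised level was 11.20, 11.09 and 11.52 in treated samples, against 10.92, 10.86 and 11.85 in controls, so control replicate 1 was second lowest. Their unscaled sum over the median empty spot was 4871, 4310 and 6802 in treated samples, against 6955, 1055 and 11656 in controls, where control replicate 1 was second highest.

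MiR-122, which sustains cholesterol synthesis in hepatocytes, was the only member that passed 3 SD in treated samples and in no control. It read 48.4, 557 and 55.9 in treated samples, against 340, 60.8 and 249 in controls. These are 1.29, 1.21 and 1.63 times the median empty spot in treated samples, against 1.17, 1.19 and 1.14 times in controls. All 3 treated samples thus lay above all 3 controls, with distances of 3.34, 2.72 and 9.89 SD in treated samples and 2.01, 1.93 and 2.34 SD in controls. It passed in treated replicates 1 and 3, and in treated replicate 2 as well when the intensity was used as deposited (3.43 SD). With 2 SD, or with the 99th percentile of the empty spots, it passed in 3 treated samples and also in 2 controls, replicates 1 and 3. Among all 599 probes, miR-122 was the only 1 (0.167%) with every treated distance above every control distance, a count made after its values had been seen. By dye, the distances were 2.72 SD in the treated sample against 2.01 and 2.34 SD in controls in Cy3, and 3.34 and 9.89 SD in treated samples against 1.93 SD in the control in Cy5, an order that the full separation already fixes. Each distance is in units of the SD of the sample's own empty spots. On the log2 scale this SD was 0.073, 0.339 and 0.046 in treated replicates 1, 2 and 3. It was 0.303, 0.103 and 0.202 in control replicates 1, 2 and 3, and lower in Cy5 than in Cy3. Distances from different samples are thus on unlike scales, which limits their comparison between groups. An exact two-sided permutation test of the distances gave p = 0.1, the smallest that 3 against 3 unpaired samples allow, and 10 such tests were run. That of miR-124, lower in treated samples and never above background, gave the same p. With samples paired by replicate number, the exact two-sided sign-flip test gave p = 0.25 for miR-122, the smallest that 3 pairs allow, with treated higher in 3 of 3 pairs. The full separation of the groups already fixes both exact p-values of miR-122 and its count of pairs, so they add nothing to it.

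The separation of miR-122 did not carry over to the level after quantile normalisation. Its normalised log2 level was 6.54, 7.35 and 6.92 in treated samples, against 6.54, 6.95 and 6.54 in controls, and the groups overlapped. Within Cy3 the treated minus control difference was 0.81 and within Cy5 it was -0.22. The authors' processed intensity of miR-122 was 24, 71 and 58 in treated samples, against 19, 43 and 22 in controls, and overlapped likewise. Since no control was above background, the ratio of the group means has only a bound. It was 1.03-fold, treated over control, when each control below the lowest detected level is set to that level. The treated mean includes replicate 2, whose level of 7.35 was the highest although it did not pass (2.72 SD). The bound thus rests in part on a reading not above background and is no firm minimum. The bound leaves out the spread between samples, and single treated samples were not all higher than the controls. On the intensity as deposited, 197 miRNAs (32.9% of all probes) passed in at least 3 samples. MiR-122 was among them only through its 3 treated samples, so its place in that fit depends on the group in which it was high. There limma gave it a difference of 0.30 (SE 0.31, 95% interval -0.49 to 1.08), given as a description.

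MiR-124, the neuronal miRNA, did not pass in any sample. Its ratio to the median empty spot was 1.05, 1.01 and 1.03 in treated samples, against 1.10, 1.07 and 1.13 in controls. All treated distances (0.31 to 0.60 SD) lay below all control distances (0.70 to 2.24 SD), as for 0.668% of all probes. The median probe that passed in no sample lay at 0.81, 0.16 and 0.38 SD in treated samples, against 1.12, -0.33 and 1.65 SD in controls, so unused probes too were higher in control replicates 1 and 3. No miR-124 reading was above background, so neither the exact test of its distances nor its fit without a filter is read as a change in level. The groups overlapped in normalised level.

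At 3 SD on corrected intensity, miR-9 passed in 3 samples, more than any other of the 10. That order depends on the threshold: at 2 SD miR-122 passed in 5 samples and miR-133a in 4, against 3 for miR-9, and at 5 SD miR-9 and miR-1 passed in 2 each. It read 89.7 ± 13.2, 487 ± 27.3 and 53.5 ± 5.64 (SD over spots) in treated samples, against 404 ± 40.9, 51.6 ± 4.85 and 239 ± 12.4 in controls. This is 2.38, 1.06 and 1.56 times the median empty spot in treated samples, against 1.40, 1.01 and 1.09 times in controls. Treated replicates 1 and 3 and control replicate 1 were high, with all 5 spots brighter than every empty spot and distances of 12.6, 8.86 and 3.60 SD, while the other 3 samples lay between 0.06 and 1.68 SD. The groups overlapped, and both samples numbered 2 were among the low ones. The authors' processed intensity of miR-9 was 83, 25 and 55 in treated samples, against 50, 21 and 14 in controls. Its passenger strand, miR-9*, was not above background in any sample, nor were miR-124*, miR-133a* and the antisense miR-1-2-as.

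Setting treated against control mice addresses the response of cortical miRNAs to sodium restriction with captopril. MiR-9 was the only member in that test, which covered the 187 miRNAs above background in at least 3 samples, in limma with group and dye. Its normalised log2 level was 6.83 ± 0.20 in treated and 6.58 ± 0.28 in control samples (SD, n = 3 each). The difference was 0.23 (SE 0.28, 95% interval -0.46 to 0.92, adjusted p = 0.995), and it was higher in treated samples in 3 of 3 pairs of the same number. Within Cy3 the difference was -0.03 and within Cy5 it was 0.49. Of the 187, 0% reached an adjusted p under 0.05 in limma, upwards or downwards, and 0 had an unadjusted p under 0.05. With the replicate number as a block, 12 (6.42%) had an unadjusted p under 0.05, miR-9 not among them (adjusted p = 0.833 in limma). The median difference over the 187 was -0.01. The difference of miR-9 turned to -0.40 with 75th percentile scaling and to -0.037 without control replicate 2, where treated samples in Cy5 have no control, and it was 1.21 with plain background subtraction.

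For the 9 members outside that test, a limma fit of all 599 probes gave no adjusted p below 0.998, and the offset of the background correction shrinks differences this close to background. The difference of miR-1 was -0.46 (95% interval -2.65 to 1.73), with a level of 6.72 ± 0.22 in treated and 7.34 ± 1.40 in control samples (SD, n = 3 each), and the spread of the controls came from control replicate 1, at 8.96, beside 6.63 and 6.44 in control replicates 2 and 3. The difference of miR-133b was -0.12 (95% interval -0.25 to 0.01). MiR-133a differed by -0.04 and miR-206 by -0.08. For these last 3, detected in no treated sample, the bound on the fold was under 1, so none is given. The normalised levels of the groups overlapped for all 10 members, and they did not overlap for 3.01% of all probes.

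The tested miRNAs whose level followed miR-9 most closely over the 6 samples were miR-691 (Pearson's r = 0.97), miR-335-5p (0.93) and miR-218 (0.89). The samples share dye and array background, which was not separated from these correlations. MiR-691 and miR-335-5p were each above background in 3 samples, and miR-218 in 6.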

How the data were processed

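Per the labels' protocols, small RNA of renal cortex was tailed with poly(A), tagged, stained with Cy3 or Cy5 and run by a service provider. Per the file headers, the deposited values are the mean intensity of each of 3968 spots, with no background subtracted. The authors' processed intensity of each miRNA, deposited as a second table of unknown normalisation, scale and centring, was an alternative only. Array software: not given in the sources used here.

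In R 4.3.3 with limma 3.58.1, spot intensity was corrected with normexp (offset 50), log2 values of the 5 spots were averaged, and the 6 samples were quantile-normalised over 599 probes. MiRNAs more than 3 SD over the mean of the 669 empty spots in at least 3 of 6 samples were tested (187). The SD is that of single empty spots of the same sample. It differed between samples and dyes, so a distance in SD is foremost a call within its sample. Treated and control were compared with lmFit and eBayes, two-sided, with a dye term and Benjamini-Hochberg adjustment at 0.05. The script was tested on simulated data. A bound on a fold sets the brighter group's mean against, per sample, the higher of the lowest detected level and the miRNA's own level. The number of arrays limits the precision, and p-values measure the spread between individual mice.

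Same-numbered samples deviated together from their group means (r = 0.449, 0.462 and 0.782), against -0.572 to 0.268 for samples of unlike number. Centring on the mean of 3 samples ties these values to one another. A shared number was read as a pair, on the evidence of the data and not of the labels. The paired results thus rest on a pairing taken from these same data. The fit above has no block; the fit with the number as a block, and exact tests with and without the pairing, were also run. The members and lists were chosen with earlier results of these data known. All 10 members are named, with the list members above background in at least 3 samples summarised, and the 3 miRNAs most like a tested member.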

Additional observations from a re-analysis of the deposited data

How the results depend on the processing

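No miRNA passed the adjusted threshold under any of the 20 alternatives. The number of members above background in at least 3 samples was 1; it was 4 with a threshold of 2 SD (38.9% of all probes), 0 with 5 SD (24.2%), 4 with the 99th percentile of the empty spots (39.4%) and 2 with the intensity as deposited (32.9%), where miR-122 joined miR-9. With 2 SD and with the 99th percentile the share of the 10 was thus close to that of all probes, and miR-122 passed in controls as well. It was 0 to 1 when a sample was left out, and 0 without treated replicate 1, treated replicate 3 or control replicate 1, the samples in which miR-9 passed. The number of members above background in at least 1 sample was 6. It was 7 with 2 SD, 8 with the 99th percentile and 3 with 5 SD (miR-1, miR-122 and miR-9). Of 599 probes, 354 passed in no sample at 3 SD, 258 at 2 SD, 235 at the 99th percentile and 393 at 5 SD. With 3 SD and a sample left out, the number of members was 4 to 6. It was 4 without control replicate 1, where miR-133a and miR-206 were lost. MiR-208a and miR-499 passed in no sample under any of the 5 thresholds tried on corrected intensity. The difference of miR-9 was below 0 with 75th percentile scaling (-0.40) and ran from -0.037 (without control replicate 2) to 0.50 when a sample was left out; otherwise it stayed above 0. In the paired analysis, with a replicate block and a dye term, it was 0.23 with an adjusted p of 0.833 in limma, and the block changed no call. Over the alternatives its adjusted p ran from 0.533 to 1.00. The filter on the intensity as deposited, the paired exact test and the counts with a sample left out were added after seeing the data. The causes were not tested. Signals of these miRNAs near the empty spots limit what the arrays can show.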

Other observations

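Above background in both samples numbered 1 and in no other were 3 of the 599 miRNAs (0.501%), a group looked for after the values of miR-1 had been seen. They were miR-1 (11.9 SD over the empty spots in treated replicate 1 and 10.7 SD in control replicate 1), miR-29b* (13.7 and 4.69 SD) and miR-467a* (7.47 and 3.43 SD). These samples carried different dyes, and differed in sex and age as well as in treatment. The pattern is for 3 SD: with 2 SD, or with the 99th percentile of the empty spots, miR-1 passed in control replicate 3 as well.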
